A study of Mus musculus with 2 samples.

Results

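Nos2 positive C1q macrophages were tumour macrophages in which the complement C1q genes and Nos2, the gene of inducible nitric oxide synthase (iNOS), were counted in the same cell. A cell was a member when it held at least 20 unique molecular identifiers (UMIs) of C1qa, C1qb and C1qc together and at least 2 of Nos2. Members also had fewer than 5 UMIs of the resident macrophage genes Folr2, Cd163, Cbr2 and Fcna, fewer than 5 of the cell cycle genes Mki67, Top2a, Nusap1 and Birc5, and at most 1 of the T cell genes Cd3d, Cd3e and Cd3g. By this rule 426 of 27362 cells were members, 287 from the Arg and 139 from the Control library. The rule read the measured counts, so members were chosen by their counts of these genes, and the levels of these genes are given as a description.

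The cells came from subcutaneous CT26 tumours, a mouse colon carcinoma line, in BALB/c mice that were 5 weeks old at the start. One diet was normal and the other lacked arginine at equal calories; both were given from 1 week before the tumour cells were injected, and the tumours were taken on day 20. CD45+ cells, that is leukocytes, were enriched with magnetic beads and sequenced as 1 10x 3′ library per diet. The library named Arg is read here as the arginine-deficient diet, since its own label names no diet and the series describes these 2 groups. The labels do not say how many mice each library holds. With 1 library per diet there is no replicate: the diet and the library cannot be told apart, no test was possible, and all intervals cover counting error only. They are too narrow where a few cells hold most UMIs of a gene.

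iNOS turns arginine into nitric oxide and citrulline, and arginases turn the same amino acid into ornithine and urea, so the enzymes draw on one substrate. In mouse macrophages Nos2 is classically induced by interferon gamma with microbial or NF-kappaB signals, and Arg1 by type 2 cytokines, lactate or low oxygen. C1q macrophages are a common tumour macrophage state that makes the C1q complement proteins and presents antigen.

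Members made up 19.8% of the 1447 C1q macrophages of the Arg library that met the other limits (exact Clopper-Pearson 95% interval 17.8 to 22.0%). In the Control library they made up 6.71% of 2073 (5.67 to 7.87%). The share was thus 2.96 times as high in the Arg library (2.41 to 3.65). Of all cells kept, members were 2.07% and 1.03%, and C1q macrophages that met the other limits were 10.4% and 15.4%. This limited C1q population was thus the smaller one in the Arg library while its Nos2 positive part was the larger one. After every cell was thinned to 5000 UMIs, 12.5% of Arg and 3.50% of Control C1q macrophages still had at least 2 Nos2 UMIs. Nos2 UMIs were also counted in T cells, which should lack the gene: 2.64% of 2200 T cells in the Arg library and 0.390% of the 2306 from the Control library had at least 2, at median depths of 8467 and 8458 UMIs against 12343 and 12588 for C1q macrophages. After thinning to 5000 UMIs the T cell shares were 1.54% and 0.160%, a ratio between libraries of 9.63 (2.96 to 49.6) beside 3.57 (2.68 to 4.81) for C1q macrophages. The share in C1q macrophages lay above the T cell share in both libraries; how far free RNA adds to the members, and to the ratio between libraries, was not tested.

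Most members held few Nos2 UMIs. In the Arg library 98 members had 2 to 3, 114 had 4 to 9 and 75 had 10 or more, with a median of 4 and a highest value of 75. In the Control library the numbers were 70, 55 and 14, with a median of 3 and a highest value of 36. The gap between libraries widened with the count: cells with 10 or more Nos2 UMIs were 5.18% of Arg and 0.675% of Control C1q macrophages. Just inside the Nos2 limit stood 60 and 40 cells with 2 UMIs, and just outside it 167 and 107 cells with 1. Near the C1q limit, 16 and 3 members had 20 to 24 C1q UMIs, and 29 and 9 cells that met every other limit had 15 to 19. Members held only 23.5% and 26.7% of all Nos2 UMIs of their library, so most Nos2 lay in other cells.

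**Figure D1:**
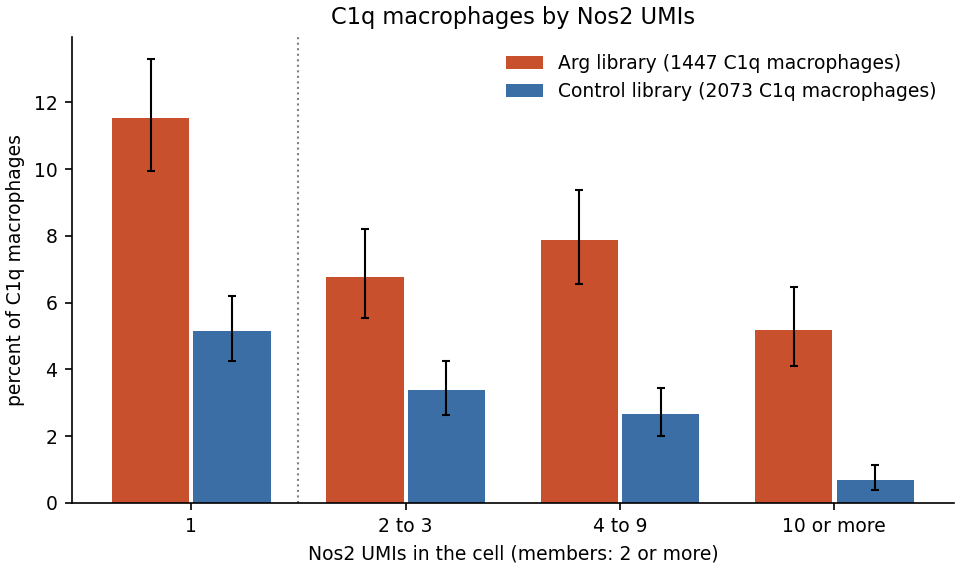
Percent of C1q macrophages (y axis) by the number of Nos2 UMIs in the cell (x axis) in the Arg and Control libraries; bars are shares, lines are exact 95% binomial intervals, and cells with 0 Nos2 UMIs are not drawn. The Arg library is higher in every class, from 11.5% against 5.16% at 1 UMI to 5.18% against 0.675% at 10 or more.

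Members carried macrophage markers that the rule did not use. After thinning, Adgre1, which encodes F4/80, was found in 51.9% of members of the Arg library and 61.9% of those of the Control library, against 4.16% and 3.25% of T cells. Cd68, a lysosomal macrophage protein, was found in 83.4% and 84.2%, against 13.3% and 8.95% of T cells. Of the marker genes that came with the label, Nos2 is part of the rule, and 3 of the other 4 did not set members apart from C1q macrophages with no Nos2 UMI. Cxcl9, an interferon gamma induced chemokine that draws CXCR3 positive T cells, stood at 1342 counts per 1000000 UMIs (CPM) in members and 1197 in Nos2=0 cells of the Arg library, and at 938 and 751 CPM in the Control library. Nr1h3, which encodes the oxysterol receptor LXR alpha, stood at 34.6 and 30.5 CPM in Arg cells and 18.3 and 20.2 in Control cells. Ms4a7, a general macrophage membrane protein, was at 407 and 465 CPM in Arg cells and 403 and 577 in Control cells. C3, the central complement component, did differ over all members. It stood at 325 against 202 CPM in the Arg library, a 1.61-fold difference (1.51 to 1.72). In the Control library it stood at 117 against 55.9 CPM, 2.09-fold (1.82 to 2.40). Members with 2 to 3, 4 to 9 and 10 or more Nos2 UMIs had C3 at 200, 362 and 402 CPM in the Arg library. The lowest of these classes was thus level with Nos2=0 cells. In the Control library the levels were 134, 105 and 91.0 CPM. Cxcl9 and Nr1h3 thus stood at like levels in members and in C1q macrophages with no Nos2 UMI, and the members are named here by their rule. A cell with no Nos2 UMI is not shown to lack Nos2.

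Doublets and other cells were few among members. Scrublet marked 13 members (4.53%) of the Arg library and 4 (2.88%) of the Control library as doublets. The 10 T cell markers summed to 29.6 CPM in members and 33.1 CPM in Nos2=0 cells of the Arg library, and to 30.8 and 30.9 CPM in the Control library. The neutrophil markers, whose cells can express Nos2 and Arg1 strongly, summed to 216 and 164 CPM in Arg cells and 132 and 148 CPM in Control cells. In the Arg library 18 of 287 members and 23 of 993 Nos2=0 cells held 10 or more such UMIs, a larger part of members. In the Control library the numbers were 2 of 139 and 17 of 1827. What such cells add to the levels in members was not tested. Fibroblast markers stood at 18.2 CPM in members of the Arg library but at 2311 CPM in those of the Control library, where 2 cells held 99.0% of them; without these 2 cells the level was 23.4 CPM. Members were slightly deeper than Nos2=0 cells, with medians of 13654 against 11632 UMIs in Arg cells and 14307 against 12386 in Control cells. The libraries shared 44 barcodes.

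Against C1q macrophages of the same library with no Nos2 UMI (993 and 1827 cells), members were higher for the arginine transporter gene Slc7a2 and for Arg1, and for many glycolysis, low-oxygen and oxidative defence genes. Some alternative activation genes were lower, and few interferon gamma response and antigen presentation genes were called in either direction. A gene was called different when its level was at least 1.5 times higher or lower after adding 5 CPM to each class, and when it reached 20 CPM in 1 of the classes. In the Arg library 195 of 5892 genes were called higher (3.31%) and 119 lower (2.02%). Among Control cells 301 of 5899 were higher (5.1%) and 595 lower (10.1%). The 115 genes called higher in both libraries were 59.0% of the Arg calls and 38.2% of the Control calls, or 2.07% of the 5566 genes measured in both, and the 68 called lower in both were 57.1% and 11.4%, or 1.22%. The balance of directions depended on the scaling: with TMM factors in place of total UMIs, 269 genes were higher and 72 lower in Arg cells, and 415 and 337 in Control cells. Over all measured genes the median log2 ratio was -0.08 in Arg cells and -0.15 in Control cells, and list medians below are read beside these.

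The arginine genes came first. Slc7a2, which encodes the cationic amino acid transporter CAT2 that carries arginine into activated macrophages, was at 210 CPM in members and 64.1 CPM in Nos2=0 cells of the Arg library, 3.28-fold (2.98 to 3.61). The Control values were 56.3 and 10.6 CPM, 5.31-fold (4.23 to 6.64). Arg1, the cytosolic arginase that uses the same substrate as iNOS, was also higher, at 1189 against 697 CPM in the Arg library, 1.70-fold (1.65 to 1.77), and 1065 against 292 CPM in the Control library, 3.64-fold (3.47 to 3.82). Both enzymes were thus counted in the same population, and 55.8% and 55.4% of thinned members had an Arg1 UMI, against 41.7% and 25.7% of Nos2=0 cells and 12.4% and 6.55% of T cells. Slc7a1, which encodes the housekeeping transporter CAT1, went the other way, at 16.9 against 24.1 CPM in Arg cells and 7.22 against 23.4 CPM in Control cells, called lower only in the latter. Ass1, which with Asl rebuilds arginine from citrulline, was at 151 and 124 CPM in Arg cells and 79.4 and 40.8 in Control cells, and was called higher in the Control library only. Gch1, the first enzyme of the iNOS cofactor tetrahydrobiopterin, was at 102 and 84.8 CPM in Arg cells and 111 and 75.8 CPM in Control cells, below the call in both. Of the 17 genes of arginine and nitric oxide metabolism measured, 2 were called higher and 0 lower in Arg cells, and 5 and 2 in Control cells, with medians of 0.06 and -0.04 (log2).

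Glycolysis and hypoxia genes differed in 1 direction in both libraries. Of 26 measured, 15 were called higher and 0 lower in the Arg library (median log2 ratio 0.62), and 23 and 0 in the Control library (0.95). Slc2a1, the glucose transporter GLUT1, stood at 227 against 102 CPM in the Arg library, 2.22-fold (2.04 to 2.42), and at 251 against 75.5 CPM in the Control library, 3.32-fold (3.01 to 3.66). Bnip3, a mitophagy receptor and target of the hypoxia factor HIF-1, stood at 336 against 176 CPM and at 415 against 112 CPM. Egln3, the oxygen-sensing prolyl hydroxylase PHD3, stood at 56.8 against 17.7 CPM and 44.8 against 8.48 CPM, and Adm, which encodes the vasodilator adrenomedullin, at 24.2 against 7.81 CPM and 79.4 against 8.81 CPM. The core glycolytic enzymes moved less. Pgk1, phosphoglycerate kinase, was at 814 and 618 CPM in the Arg library, 1.32-fold (1.26 to 1.37), and at 1245 and 634 CPM in the Control library, 1.96-fold (1.88 to 2.05). Hif1a itself was at 456 and 303 CPM in Arg cells and 172 and 152 in Control cells, below the call in both. Respiration genes did not follow: of 28 oxidative phosphorylation and citrate cycle genes, 0 were called in either direction in the Arg library and 3 were called lower and 0 higher in the Control library.

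HIF-1 binds short motifs with the core ACGTG or GCGTG, so the promoters of these genes were read for those letters. The 250 bases before the start of Slc2a1 (chr4:119108495-119108744, plus strand), Bnip3 (chr7:138909507-138909756, minus strand), Pgk1 (chrX:106186850-106187099, plus strand) and, for contrast, Cxcl9 (chr5:92328080-92328329, minus strand) are shown from RefSeq on GRCm38.p6, 5′ to 3′ on the gene's strand. Capitals mark ACGTG or GCGTG on either strand and matches to a loose NF-kappaB type motif on either strand. They are shown because the first 3 genes belong to the glycolysis and hypoxia list and Cxcl9 does not. Slc2a1 and Bnip3 were called higher in members of both libraries, Pgk1 in the Control library only, and Cxcl9 in neither.
Slc2a1: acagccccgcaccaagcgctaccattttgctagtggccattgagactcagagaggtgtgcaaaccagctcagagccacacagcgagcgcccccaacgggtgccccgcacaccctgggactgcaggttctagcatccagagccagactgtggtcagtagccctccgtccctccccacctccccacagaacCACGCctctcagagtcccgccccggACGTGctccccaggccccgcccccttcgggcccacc
Bnip3: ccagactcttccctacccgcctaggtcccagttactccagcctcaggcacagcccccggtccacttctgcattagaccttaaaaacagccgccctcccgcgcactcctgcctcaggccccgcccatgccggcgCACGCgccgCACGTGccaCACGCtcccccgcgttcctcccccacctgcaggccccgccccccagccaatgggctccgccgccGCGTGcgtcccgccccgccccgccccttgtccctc
Pgk1: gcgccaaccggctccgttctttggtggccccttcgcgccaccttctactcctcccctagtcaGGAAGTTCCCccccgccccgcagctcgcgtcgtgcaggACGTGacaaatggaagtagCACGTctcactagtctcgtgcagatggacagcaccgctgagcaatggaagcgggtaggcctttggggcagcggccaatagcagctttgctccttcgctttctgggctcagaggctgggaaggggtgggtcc
Cxcl9: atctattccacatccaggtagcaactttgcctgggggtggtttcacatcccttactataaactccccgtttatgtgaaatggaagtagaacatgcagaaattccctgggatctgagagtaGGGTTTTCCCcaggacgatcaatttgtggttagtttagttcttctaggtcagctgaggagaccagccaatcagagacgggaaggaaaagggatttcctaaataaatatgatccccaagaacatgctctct
ACGTG on either strand was present within 250 bases before to 50 after a start in 18 of the 24 glycolysis and hypoxia genes with a promoter in the table (75%). The same letters were found for 31.5% of the 4742 measured genes with a promoter and 33.3% of the 18 respiration genes with one. They were in 19.6% of all 32851 promoters of this length, a share of promoters and not of genes. GCGTG was found for 14 of the 24 genes and in 32.4% of all promoters. The NF-kappaB type motif was found for 6 of the 24 genes and in 20.7% of all promoters. The list holds known HIF-1 targets, so its share of ACGTG depends on how its genes were chosen and says nothing of members. ACGTG holds a CpG, so its share follows base composition. These are matches of letters and say nothing of binding.

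**Figure D2:**
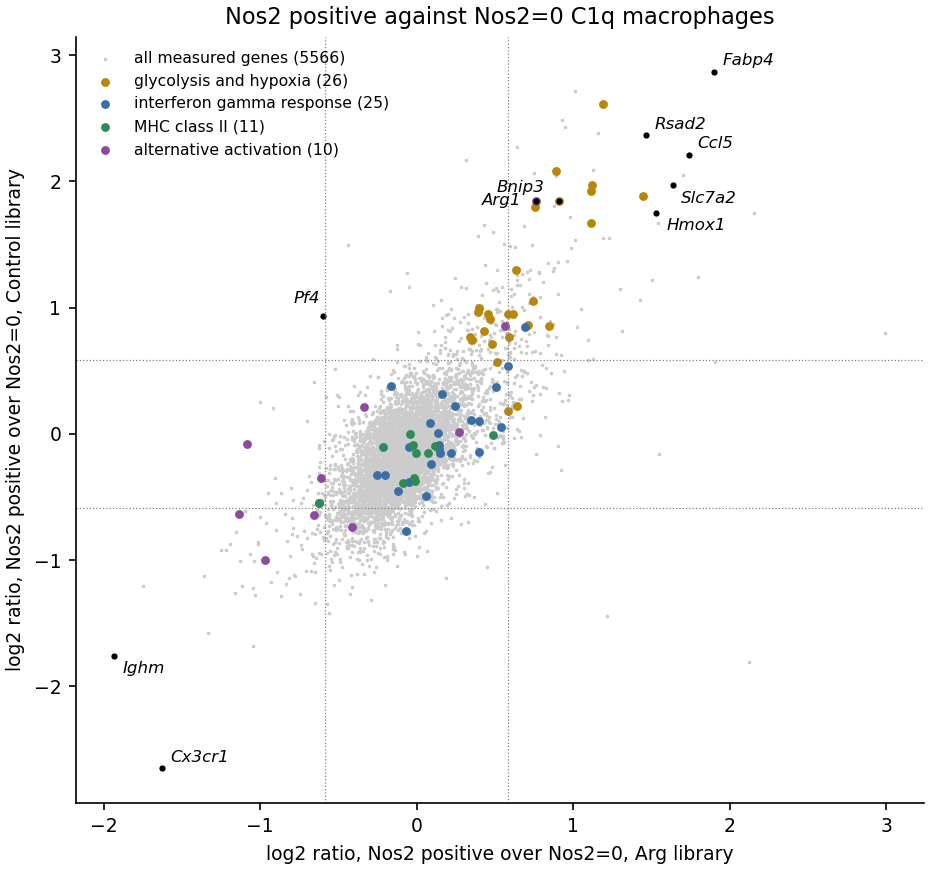
Each point is a gene measured in both libraries (5566), placed by its log2 ratio between Nos2 positive and Nos2=0 C1q macrophages in the Arg library (x axis) and in the Control library (y axis), with 5 CPM added; dotted lines mark 1.5-fold, and 4 gene lists are coloured. Glycolysis and hypoxia genes lie to the upper right, while MHC class II and most interferon gamma response genes lie near the centre.

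Oxidative defence genes, which protect cells from reactive oxygen and iron, were called higher for 10 of 20 in the Arg library (median 0.60) and 8 of 20 in the Control library (0.39), with 0 lower in both. Hmox1, heme oxygenase 1, was at 746 against 255 CPM in the Arg library, 2.93-fold (2.79 to 3.08), and at 1308 against 385 CPM in the Control library, 3.39-fold (3.25 to 3.54). Prdx1, a peroxide-reducing enzyme, was 2.19-fold higher in the Arg library (2.14 to 2.25) and 1.51-fold in the Control library (1.46 to 1.57). Slc7a11, the cystine importer that feeds glutathione, was at 199 against 77.0 CPM, then 34.2 against 17.2 CPM. The count of the Control library was 5 without the cells that carried fibroblast transcripts. Lipid-associated macrophage genes followed in part: 7 of 19 were higher and 1 lower in Arg cells, and 9 and 1 of 19 in Control cells. Among them Fabp5, a fatty acid carrier, was 1.84-fold (1.80 to 1.88) and 3.52-fold (3.38 to 3.67) higher, and Mmp12, the macrophage elastase, 1.90-fold (1.86 to 1.95) and 5.64-fold (5.46 to 5.81).

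Among inflammatory genes driven by NF-kappaB, 11 of 28 were called higher and 2 lower in the Arg library (median 0.51), and 9 and 1 of 29 in the Control library (0.28). Acod1, which makes the antimicrobial metabolite itaconate, stood at 225 against 76.3 CPM in Arg cells and 194 against 80.2 CPM in Control cells. Clec4e, the Mincle receptor for mycobacterial and dead cell ligands, stood at 138 against 44.0 CPM and at 138 against 39.8 CPM. Ptgs2, cyclooxygenase 2, was 2.09-fold (1.99 to 2.2) and 2.02-fold (1.85 to 2.19) higher. The lower genes of the Arg library were the monocyte-attracting chemokines Ccl2, at 1710.2 against 2738 CPM, and Ccl7, at 1350.5 against 2029 CPM. Ccl5, a chemokine for T cells and monocytes, was at 1637 against 487 CPM in the Arg library, 3.36-fold (3.25 to 3.48), and at 518 against 108 CPM in the Control library, 4.80-fold (4.47 to 5.16). T cells are a strong source of Ccl5, with a UMI in 61.7% and 60.2% of them after thinning, against 58.3% and 25.2% of members, 35.4% and 14.5% of Nos2=0 cells; T cell markers were near level between members and Nos2=0 cells, as given above. Among Control members 5 cells held 50.7% of the members' Ccl5 UMIs.

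Few interferon gamma response genes were called: of 26 in the Arg library 1 was higher and 1 lower (median 0.14), and of 25 in the Control library 1 and 1 (-0.10). The higher one was Cd274, which encodes the checkpoint ligand PD-L1, at 760 against 468 CPM, 1.62-fold (1.55 to 1.69), and 390 against 214 CPM, 1.82-fold (1.69 to 1.96). The lower ones were Ciita, the MHC class II transactivator, in the Arg library (35.3 against 57.1 CPM) and Irgm2, an immunity-related GTPase, in the Control library (17.8 against 33.9 CPM). Type I interferon genes were called higher for 4 of 17 in Arg cells (median 0.12) and 8 of 17 in Control cells (0.58), with 0 lower; a difference between the lists was not tested. Rsad2, the antiviral protein viperin, led them at 283 against 99.3 CPM and 465 against 86.0 CPM; 5 cells held 34.9% and 43.2% of its UMIs in members. MHC class II genes showed 0 higher and 1 lower (Ciita again) of 11 in Arg cells and 0 called of 11 in Control cells, and MHC class I genes 0 called of 20 in both. H2-Aa, a class II chain, stood at 4799 and 4819 CPM in Arg cells and 2079 and 2310.0 CPM in Control cells. Summed over all members, these levels of class II differed more between libraries than between members and Nos2=0 cells. Members with 2 to 3, 4 to 9 and 10 or more Nos2 UMIs had H2-Aa at 4330, 5233 and 4719 CPM in the Arg library. In the Control library the levels were 2612, 1780.5 and 1071 CPM, the last in 14 cells.

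The genes lower in members held alternative activation markers. Of 11 measured in the Arg library 6 were lower and 1, Arg1, was higher (median -0.61); of 10 in the Control library 4 were lower and 2, Arg1 and Pdcd1lg2, were higher (-0.21). Mrc1, the mannose receptor, stood at 568 against 898 CPM in the Arg library, 0.633-fold (0.605 to 0.661), and at 415 against 649 CPM in the Control library, 0.639-fold (0.596 to 0.685). Ccl24, an eosinophil chemokine, stood at 28.4 against 60.3 CPM and 17.3 against 39.5 CPM. Pdcd1lg2, at 187 against 125 CPM, was below the call in the Arg library. With every count taken at matched depth, 4 of 11 and 2 of 10 were lower.

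**Figure D3:**
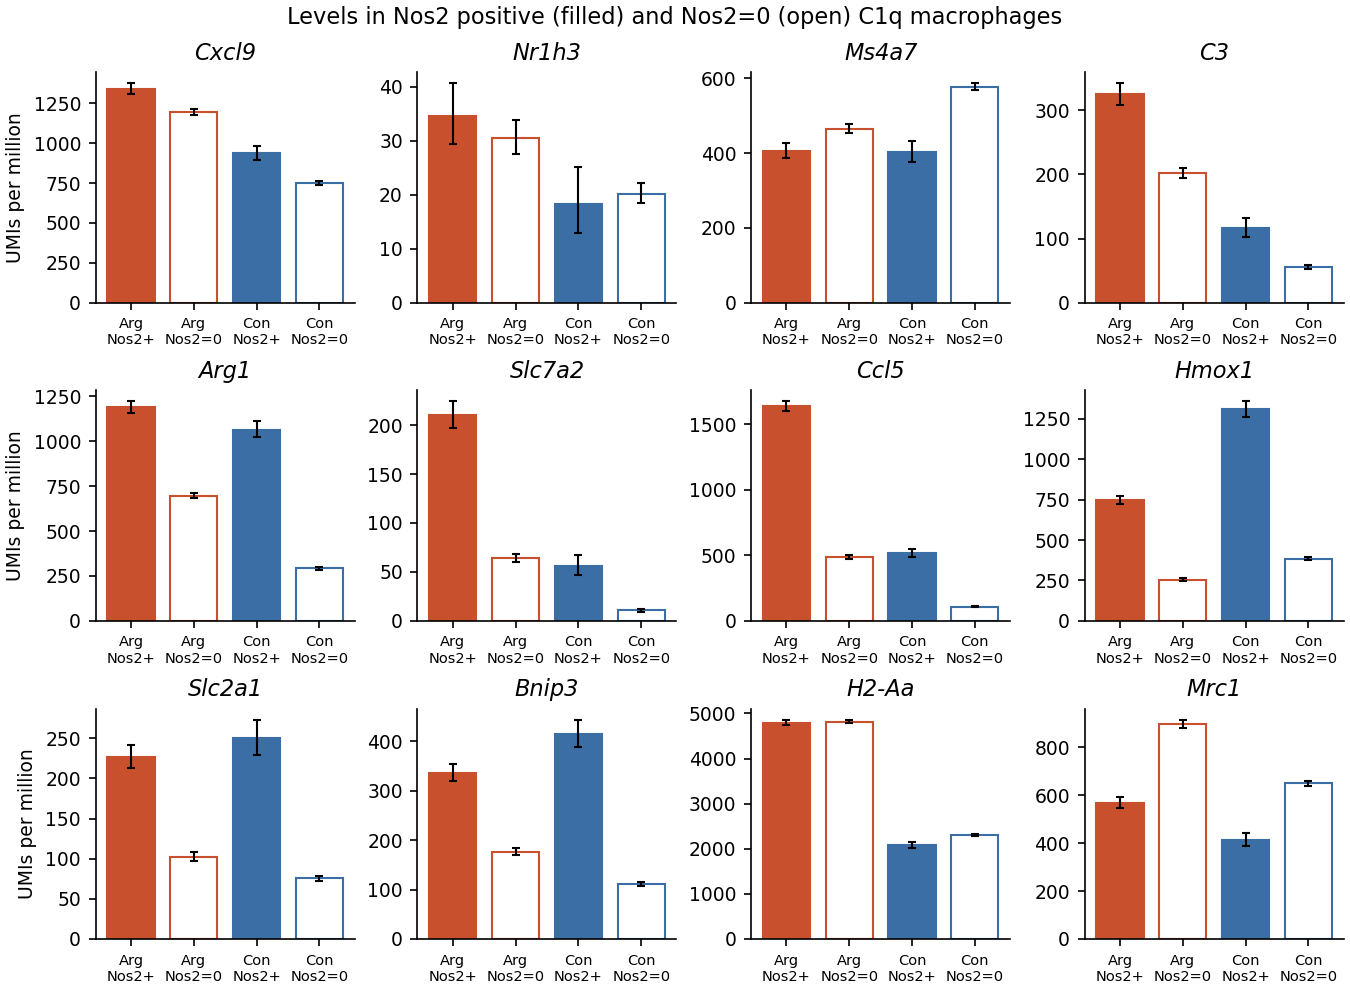
CPM (y axis, from 0) of 12 genes in Nos2 positive (filled) and Nos2=0 (open) C1q macrophages of the Arg (orange) and Control (blue, Con) libraries; bars are sums over all cells of a class and lines are exact Poisson 95% intervals, counting error only. Slc7a2, Arg1, Ccl5, Hmox1, Slc2a1 and Bnip3 are higher in members in both libraries, Mrc1 is lower, and H2-Aa differs mainly between the libraries.

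Among genes called higher in both libraries, ordered by the smaller of the library log2 ratios with 5 CPM added, the first 12 were Fabp4, Plpp3, Ccl5, Tnfrsf9, Slc7a2, Clec4e, Hmox1, Rsad2, Egln3, Slpi, Eno2 and Acod1, with plain ratios of 2.85 to 7.57 in Arg cells and 2.42 to 10.5 in Control cells. Tnfrsf9, the costimulatory receptor 4-1BB, stood at 199 against 57.6 CPM and 95.8 against 19.4 CPM. Plpp3, a lipid phosphatase, stood at 42.0 against 5.55 CPM and 25.03 against 3.91 CPM. For some of these genes a few cells carried the level: 5 cells held 67.9% and 72.9% of the members' UMIs of Fabp4, a fatty acid carrier, 73.1% of those of Plpp3 in the Control library and 79.8% of those of Slpi, a protease inhibitor, in the Control library. In Arg and Control members the same figures were 19.7% and 48.2% for Tnfrsf9, 28.4% and 41.4% for Hmox1, and 18.6% and 27.4% for Slc7a2.

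By the same order among genes called lower in both, the 12 lowest included Ighm, Cx3cr1, Tmem176b, Psd3, Lsamp, Tm4sf1, Fgd2, Tmem176a, Rab3il1, Pmepa1 and Igfbp4, with ratios of 0.180 to 0.455 in Arg cells and 0.134 to 0.478 in Control cells. Cx3cr1, the fractalkine receptor of patrolling monocytes and some resident macrophages, stood at 7.16 against 32.6 CPM and at 22.1 against 165 CPM, 0.134-fold in the Control library (0.0982 to 0.179). Psd3, a regulator of ARF GTPases, stood at 21.5 against 83.8 CPM and 68.3 against 164 CPM. Ighm, the immunoglobulin mu chain, stood at 8.08 against 44.9 CPM and 28.9 against 110 CPM; B cell markers summed to 20.1 against 67.6 CPM and 40.4 against 131 CPM, and their part in this result was not tested. Tm4sf1 was no longer lower in the Control library without the cells that carried fibroblast transcripts (log2 ratio 0.12).

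Members were not uniform in Arg1. This division was chosen after the values were seen. In the Arg library 120 of the 287 members held 10 or more Arg1 UMIs, 67 held 1 to 9 and 100 held 0. In the Control library the numbers were 60, 26 and 53. Members at either end had like depths, with medians of 13644 and 13080 UMIs in Arg cells and 14262 and 14307 in Control cells. Nos2, which the rule set to at least 2 UMIs in every member, is given as a description only. It was at 646 CPM with 10 or more Arg1 UMIs and at 494 CPM with 0 in Arg cells, and at 376 and 331 CPM in Control cells.

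The antigen-presenting, T cell attracting genes were lower in the Arg1-high members than in the members that had no Arg1. Cxcl9 was at 517 CPM in members with 10 or more Arg1 UMIs and at 2206 CPM in those with 0 in the Arg library, 0.234-fold (0.218 to 0.252). Among Control members it was at 149 and 1801 CPM, 0.0825-fold (0.0686 to 0.0986). H2-Aa was at 2999 and 6428 CPM in Arg cells and 639 and 3190 CPM in Control cells. C3 was at 188 and 424 CPM and at 43.3 and 173 CPM, and Nr1h3 at 13.9 and 52.6 CPM and at 8.87 and 33.6 CPM. The label's markers Cxcl9, C3 and Nr1h3 were thus lower in the Arg1-high members than in those with no Arg1. Ms4a7 differed less, at 328 and 453 CPM in Arg cells and 359 and 410 CPM in Control cells. Members with 1 to 9 Arg1 UMIs had C3 at 435 CPM in Arg cells and 175 CPM in Control cells, near the level without Arg1. Their Nr1h3 was at 47.1 and 8.07 CPM, their Cxcl9 at 1631 and 982 CPM, and their H2-Aa at 5789 and 3166 CPM.

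The low-oxygen and lipid-associated genes lay with the Arg1-high members. Bnip3 was at 474 against 236 CPM in the Arg library, 2.01-fold (1.78 to 2.29), and 560 against 254 CPM in the Control library, 2.21-fold (1.87 to 2.61). Spp1, osteopontin, was at 2364 against 427 CPM, 5.54-fold (5.09 to 6.04), and 2033 against 701 CPM, 2.90-fold (2.64 to 3.19). Mmp12 was at 5354 against 725 CPM in the former and 5476 against 531 CPM in the latter library. PD-L1 did not follow this division: Cd274 was at 749 and 734 CPM in Arg cells and 351 and 416 CPM in Control cells.

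Over all genes, 324 of 5916 (5.48%) were called higher and 513 (8.67%) lower with 10 or more Arg1 UMIs in members of the Arg library, and 464 of 5702 (8.14%) and 1136 (19.9%) in those of the Control library. Of these, 138 were higher in both libraries (42.6% and 29.7% of the calls) and 238 lower in both (46.4% and 21.0%). Glycolysis and hypoxia genes were higher for 13 of 26 and lower for 1 in Arg cells, and 17 and 2 of 26 in Control cells. Lipid-associated genes were higher for 11 of 20 and lower for 1, and higher for 10 and lower for 2 of 19. Interferon gamma response genes were lower for 17 of 26 and 20 of 25, with 0 higher, and MHC class II genes for 9 of 11 in both, with 0 higher. Other lists differed between the libraries. NF-kappaB inflammatory genes were higher for 10 and lower for 3 of 28 in Arg members, but higher for 3 and lower for 12 of 29 in Control members. Type I interferon genes were higher for 1 and lower for 1 of 17 in Arg members, and lower for 13 of 17 in Control members with 0 higher. MHC class I genes were lower for 1 and 10 of 20, with 0 higher. Fibroblast markers in the Control library lay in the Arg1-free members; without those cells the interferon gamma count was 0 higher and 21 lower of 26, and the glycolysis and hypoxia count 18 higher and 2 lower.

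A division by Arg1 was also present in C1q macrophages with no Nos2 UMI. There the percentages called were 4.99% higher and 8.02% lower in Arg cells, and 4.39% and 6.74% in Control cells. Glycolysis and hypoxia genes were higher for 20 of 26 and 21 of 26, interferon gamma genes lower for 16 of 26 and 16 of 25, and MHC class II genes lower for 9 and 7 of 11. The genes overlapped in part: of the 138 higher and 238 lower in members of both libraries, 83 (60.1%) and 108 (45.4%) were also called in both classes of Nos2=0 cells. Type I interferon genes were lower for 9 of 16 and 6 of 16 in Nos2=0 cells, beside 1 and 13 of 17 in members. The Arg1-high part was 41.8% of members and 22.6% of Nos2=0 cells in the Arg library, and 43.2% and 11.7% among Control cells. In Nos2=0 cells the Arg1-high cells were deeper than those without Arg1, with medians of 12843 against 10789 and 14225 against 11657 UMIs.

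**Figure D4:**
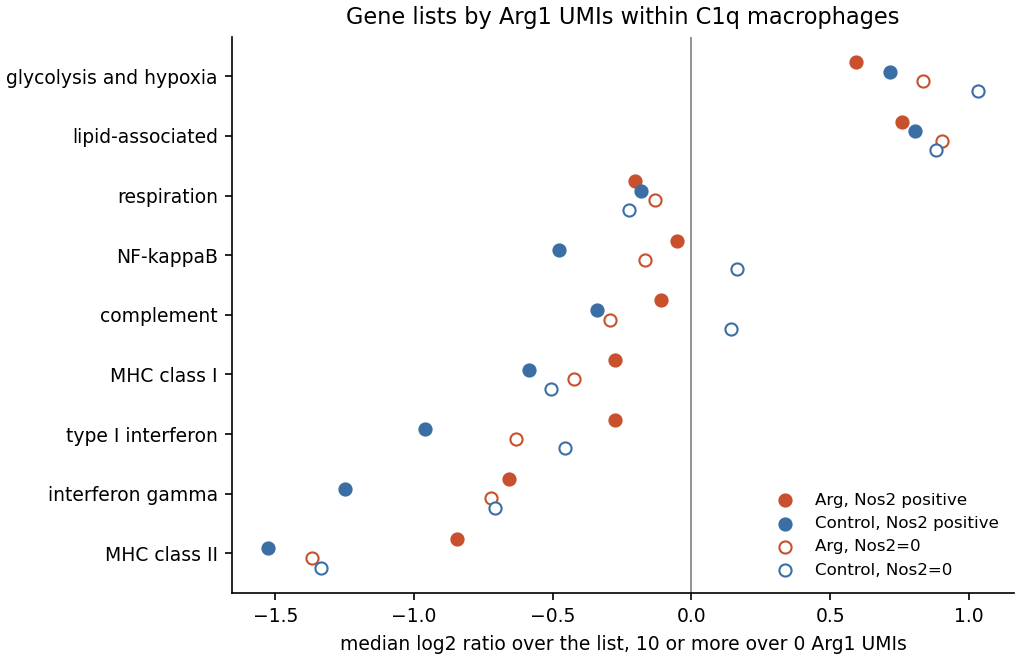
Median log2 ratio between cells with 10 or more and cells with 0 Arg1 UMIs (x axis) over the measured genes of 9 lists (y axis), in Nos2 positive (filled) and Nos2=0 (open) C1q macrophages of the Arg (orange) and Control (blue) libraries. Glycolysis and hypoxia and lipid-associated lists lie above 0 and interferon gamma and MHC class II lists below 0 in all 4 classes, the latter from -1.53 to -0.84.

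Levels along the Nos2 count itself, given above for H2-Aa and C3, are given here for 3 other genes that also differed by Arg1. From 2 to 3, through 4 to 9, to 10 or more Nos2 UMIs, Slc7a2 stood at 104, 142 and 400 CPM in Arg cells and 53.5, 51.1 and 80.5 CPM in Control cells. Ccl5 stood at 1032, 1539 and 2358 CPM in Arg cells and 497, 527 and 563 CPM in Control cells. The highest class held 14 Control members, and Ccl5 differed little across the Control classes. Cxcl9 stood lower at higher counts, at 1554, 1424 and 1030 CPM and at 1002, 915 and 777 CPM. Cells with more Nos2 UMIs were also deeper, with medians of 12507, 13249 and 15973 UMIs in Arg cells and 12918, 14379 and 18110 in Control cells.

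Between the libraries, members of the Arg library were higher than those of the Control library for interferon gamma response, MHC class II and MHC class I genes. Of 5753 genes measured in members, 659 were higher in the Arg library (11.5%) and 243 lower (4.22%); in Nos2=0 cells 353 of 6001 were higher (5.88%) and 163 lower (2.72%). With TMM factors the numbers were 464 and 367 in members and 296 and 208 in Nos2=0 cells. The members are fewer, 287 and 139 cells, so their ratios vary more by counting alone. The median log2 ratio over all genes was 0.14 in members and 0.05 in Nos2=0 cells. The 8 NK cell markers, of cells that make interferon gamma, summed to 148 CPM in Arg members and 57.3 CPM in Control members, where 6 and 2 cells held 80.2% and 74.8% of them; without those cells the levels were 30.3 and 14.6 CPM. Their part in the differences between libraries was not tested.

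Of 26 interferon gamma response genes, 17 were higher and 0 lower in members of the Arg library (median log2 ratio 0.73), beside 11 and 0 in Nos2=0 cells (0.48). Socs1, a feedback inhibitor of cytokine signalling, stood at 173 and 45.7 CPM in members, 3.79-fold (3.06 to 4.75), and at 148 and 51.2 CPM in Nos2=0 cells, 2.89-fold (2.69 to 3.11). Irf1, an interferon-induced transcription factor, stood at 337 and 125 CPM in members, 2.71-fold (2.37 to 3.10), and at 323 and 177 CPM in Nos2=0 cells, 1.82-fold (1.75 to 1.90). Cxcl9 stayed below the call in members, at 1342 and 938 CPM, 1.43-fold (1.36 to 1.51).

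MHC class II genes were higher for 10 of 11 in members (median 0.86) and 7 of 11 in Nos2=0 cells (0.76), with 0 lower. H2-Aa was 2.31-fold higher in members (2.23 to 2.39) and 2.09-fold in Nos2=0 cells (2.06 to 2.11). MHC class I genes were higher for 8 of 20 in members (median 0.50) and 1 of 20 in Nos2=0 cells (0.21); Tapbp, the peptide-loading protein tapasin, was 1.96-fold higher (1.74 to 2.2) in members and 1.69-fold (1.62 to 1.76) in Nos2=0 cells. Whether members and Nos2=0 cells differ in these ratios could not be tested. Costimulation and checkpoint genes were higher for 7 of 17 in members and 7 of 15 in Nos2=0 cells, with 0 lower. Pdcd1lg2, the checkpoint ligand PD-L2, stood at 187 and 29.8 CPM in members, 6.28-fold (4.85 to 8.27), and at 125 and 14.3 CPM in Nos2=0 cells, 8.76-fold (7.79 to 9.88).

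Nos2 within members, which the rule set to at least 2 UMIs, was at 577 CPM in Arg cells and 349 CPM in Control cells. Slc7a2 was 3.73-fold higher in members of the Arg library (3.07 to 4.56) and 6.05-fold in Nos2=0 cells (5.24 to 6.99). Arg1 was nearly level between the libraries in members, at 1189 and 1065 CPM, 1.12-fold (1.06 to 1.17), but was 2.39-fold higher in Nos2=0 cells of the Arg library (2.31 to 2.46). Gatm, which starts creatine synthesis from arginine, was lower in the Arg library, at 359 and 674 CPM in members, 0.533-fold (0.495 to 0.573). Genes of the amino acid starvation response under ATF4 were called higher for 1 of 11 in members and 1 of 12 in Nos2=0 cells, with 0 lower. The 1 gene in members was Slc7a11, at 199 and 34.2 CPM, 5.82-fold (4.57 to 7.53); Asns, asparagine synthetase and a standard target of this response, was at 2.77 and 1.44 CPM, under the measuring limit.

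Glycolysis and hypoxia genes were not higher as a group in members of the Arg library, with 3 higher and 4 lower of 26 (median -0.26), while in Nos2=0 cells 5 of 24 were higher and 0 lower (0.28). Hif1a was 2.64-fold higher in members of the Arg library (2.36 to 2.97), but Ankrd37, a HIF-1 target, was at 79.0 and 193 CPM, 0.409-fold (0.353 to 0.474). Type I interferon genes had 1 higher and 3 lower of 17 in members (-0.25) and 1 and 0 of 16 in Nos2=0 cells (0.35).

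**Figure D5:**
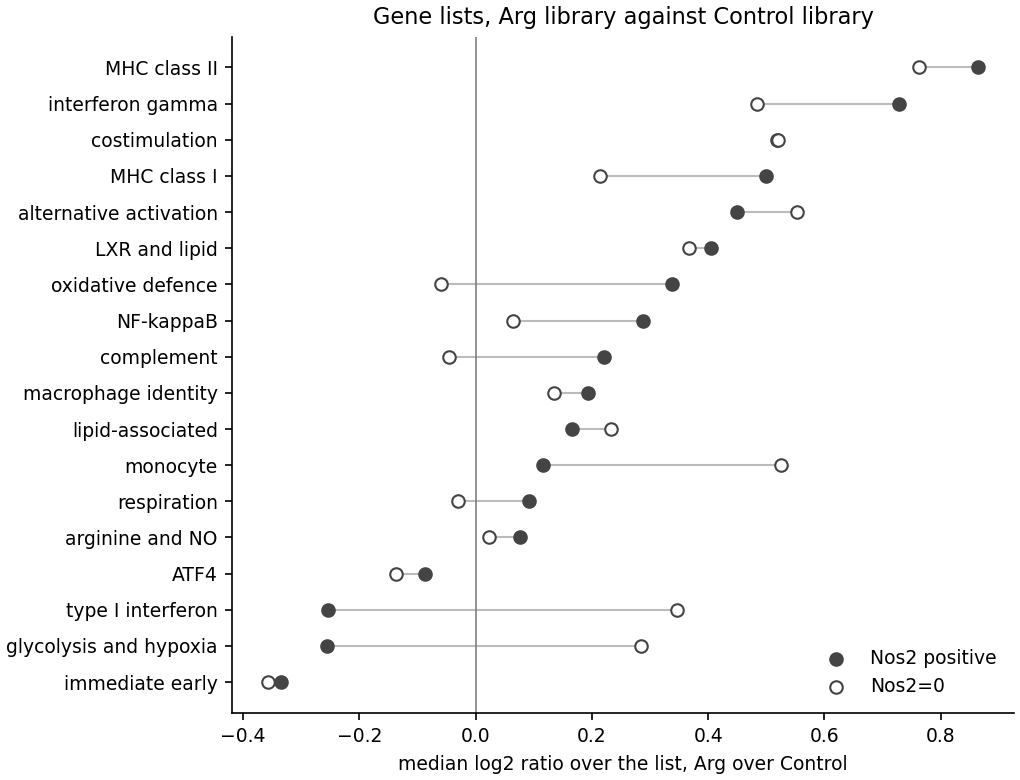
Median log2 ratio between the Arg and Control libraries (x axis) over the measured genes of 18 lists (y axis), in Nos2 positive (filled) and Nos2=0 (open) C1q macrophages; a grey line joins the values of a list. MHC class II and interferon gamma lists are highest in members, at 0.86 and 0.73, and the glycolysis and hypoxia and type I interferon lists lie on opposite sides of 0 in members and Nos2=0 cells.

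The 10 genes highest in members of the Arg library were Mmp9, AA467197, Gm9844, Inhba, F10, Ifitm1, Cxcl3, Pdcd1lg2, Slc7a11 and Klrb1b. All of them were also called higher in Nos2=0 cells of the Arg library, so none was particular to members. Inhba, the activin A subunit, stood at 296 and 35.1 CPM, 8.42-fold (6.65 to 10.8), and at 75.3 and 22.0 CPM in Nos2=0 cells. F10, coagulation factor X, stood at 99.7 and 12.99 CPM, 7.68-fold (5.2 to 11.8), beside 6.59-fold in Nos2=0 cells. AA467197, also called Nmes1, stood at 191 and 18.8 CPM, 10.2-fold (7.37 to 14.4), beside 2.86-fold in Nos2=0 cells. For Mmp9, a gelatinase, and Cxcl3, a neutrophil chemokine, 5 cells held 52.2% and 60.0% of the UMIs of Arg members; neutrophil markers were at 216 CPM there against 132 CPM in Control members, and their part was not tested.

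The 10 lowest were Col3a1, Col1a1, Sparc, Fstl1, Col1a2, Rarres2, Dcn, Sfrp2, Mfap5 and Cxcl14. The first 9 are genes of fibroblasts and matrix, and 5 cells held at least 98.8% of their UMIs in Control members. Col3a1, for instance, was at 952 CPM in Control members and 3.002 CPM in Arg members. With the 2 Control members and 1 Arg member that carried fibroblast transcripts left out, the lowest genes, named after their values were seen, were Cxcl14, Klf2 and Gpr183. Cxcl14, a tissue chemokine, was then at 12.6 CPM in Arg cells and 104 CPM in Control cells. Klf2, a transcription factor that restrains macrophage activation, was at 216 and 879 CPM. The heat shock genes Hspa1a and Hspa1b were also among the 10 lowest, with Hspa1a at 71.1 and 233 CPM and Hspa1b at 53.9 and 156 CPM; they are near-identical copies whose reads may be split between them.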

How the data were processed

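Single-cell RNA libraries were made from CD45+ cells of tumours with the 10x 3′ v3 chemistry, 1 per diet. The deposited matrices hold UMI counts per gene and barcode. Their writer is Cell Ranger 7.0.1 per the file headers but Cell Ranger 2.2.2, with GRCm38, per the submitters' processing notes; neither source says how intronic reads were treated. The libraries held 155927693 and 191505551 UMIs in 14540 and 14343 barcodes (Arg and Control). Barcodes with at least 200 genes and at most 10% mitochondrial UMIs were kept, 13875 and 13487; every barcode left out exceeded the mitochondrial limit. Doublets were called with Scrublet in scanpy 1.11.5 at an expected rate of 8% and were not removed, other than in an alternative.

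UMIs were summed over the cells of a class and divided by the class total (CPM). Ratios used 5 CPM added, genes under 20 CPM in both classes were not measured, and genes of the member rule were left out. Cells are not replicates, so no test was run. Folds printed with an interval are plain ratios of CPM with exact 95% intervals from the counts. T cells for background had at least 3 UMIs of Cd3d, Cd3e and Cd3g and fewer than 5 of C1q. TMM factors came from edgeR 4.0.16. The contrast script was tested on simulated data. The members, the gene lists and the rule were chosen with earlier results of these data known. Genes named are the label's markers with Arg1, the 12 highest and 12 lowest between members and Nos2=0 cells called in both libraries, the 10 highest and 10 lowest of at least 50 CPM between libraries within members, and members of the lists by size or role; others are named as chosen after their values were seen. One gene that this rule names is not reported here. Where 2 identifiers share a symbol, the one with more UMIs kept it. Promoters were read from the RefSeq table for GRCm38.p6. Alternatives were doublets left out, Nos2 limits of 1 and 5, a C1q limit of 50, a mitochondrial limit of 5%, matched depth, a pseudocount of 1 CPM, a filter of 50 CPM or none, TMM, equal weight per cell, and thinning to 5000 or 2000 UMIs.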

Additional observations from a re-analysis of the deposited data

Results flagged for a closer look

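Some results pointed in opposite directions in classes compared in the same way; none of these differences was tested. Pf4, platelet factor 4, a chemokine that macrophages also make, was lower in members than in Nos2=0 cells in the Arg library, at 1501 against 2275 CPM (log2 ratio -0.60), and higher in the Control library, at 2192 against 1143 CPM (0.94). It was carried by many cells, with 5 cells holding 19.4% and 28.5% of the members' UMIs.

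Gzmc was higher in members of the Arg library (log2 ratio 1.22) and lower in those of the Control library (-1.44), and Gzmf likewise (2.12 and -1.80). These are neighbouring granzyme genes of cytotoxic lymphocytes, and 5 cells held 93.5% and 84.6% of the members' Gzmc UMIs and 95.2% and 62.5% of their Gzmf UMIs.

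Glycolysis and hypoxia genes had a median log2 ratio between libraries of -0.26 in members and 0.28 in Nos2=0 cells, and type I interferon genes -0.25 and 0.35. The monocyte list had a median of -0.23 between members and Nos2=0 cells of the Arg library but 0.22 for the Control cells, where the value was -0.22 without the cells that carried fibroblast transcripts.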

How the results depend on the processing

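The share of members among C1q macrophages stayed 2.64 to 4.24 times as high in the Arg library under all alternatives run; it moved beyond its interval at a Nos2 limit of 5 (3.94) and after thinning to 2000 UMIs (4.24). Counts of genes moved with the limits. Between members and Nos2=0 cells, a Nos2 limit of 1 gave 119 higher and 55 lower in the Arg library and 244 lower in the Control library. A limit of 5 gave 305 and 252 in the Arg library and 472 and 1140 in the Control library. A filter of 50 CPM gave 50 lower in the Arg library and 195 higher and 233 lower in the Control library. No filter gave 284 lower, and 483 and 1106. TMM gave 72 and 337 lower, and equal weight per cell 200 lower in the Arg library. Between libraries within members, a Nos2 limit of 5 gave 1124 higher and 497 lower, a filter of 50 CPM 387 and 143, no filter 1004 and 534, and TMM 367 lower. In Nos2=0 cells the lower count was 78 at 50 CPM and 300 with no filter. The ratios of 4 named genes turned without the cells that carried fibroblast transcripts, an alternative chosen after seeing the data. Tm4sf1 turned to 0.12 between members and Nos2=0 cells of the Control library. Between libraries, Sparc turned to 0.088 and Sfrp2 to 0.066 in members, and Mfap5 to 0.031 in Nos2=0 cells. Of 828 list medians under alternatives, 814 moved by no more than 0.25 (log2). Of the single-gene ratios, 244 moved by at least 0.1 (log2) and beyond their counting interval, 998 did not and 4 turned; 63 moved and 20 did not at a Nos2 limit of 1, and 42 and 66 at a C1q limit of 50. The type I interferon median between libraries in members was 0.15 at a Nos2 limit of 1. No paired analysis was possible because each diet has 1 library. Genes near 20 CPM rest on few UMIs in the 139 Control members.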

Other observations

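Among the C1q macrophages that failed only 1 limit of the member rule, with at least 2 Nos2 UMIs, 75 cells of the Arg library and 32 of the Control library were left out by the resident genes Folr2, Cd163, Cbr2 and Fcna. Cell cycle genes left out 35 and 29, and Cd3 genes 29 and 7. Many cells with Nos2 were not C1q macrophages by the C1q limit: of 1338 cells of the Arg library and 449 of the Control library with at least 2 Nos2 UMIs, 882 and 220 had fewer than 20 C1q UMIs.

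In Nos2=0 C1q macrophages of the Control library 5 red cell genes summed to 231 CPM, with 99.4% of these UMIs in 2 cells, and to 0.481 CPM in members of that library.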
